A study of Mus musculus with 17 samples.

Results

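Thyroid hormone reaches its receptors in the brain through a relay in which astrocytes take part, and 8 genes of that relay are described here in astrocytes of the cortex and of the sensory thalamus. They are *Slco1c1*, *Dio2*, *Dio3*, *Crym*, *Thra*, *Thrb*, *Hr*, and *Klf9*. They were chosen by symbol for their roles, without a measured value in the rule but with earlier results of these data known. They are 8 of the 26556 genes with counts. The data are RNA-seq counts of GFP-positive cells sorted by FACS from *Gfap::Gfp* mice of the FVB strain at postnatal day 7 (P7), with no treatment and with the same reporter in every group. The primary somatosensory cortex gave 4 libraries, the dorsolateral geniculate nucleus (dLG, visual) 5, the ventral posteromedial nucleus (VPM, somatosensory) 4, and the ventral part of the medial geniculate nucleus (MGv, auditory) 4. Each library came from the pooled tissue of 4 brains, so the spread between libraries is that between pools. The *Gfap* promoter selected the cells, and any other cell in which the reporter is active would be sorted with them.

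The thyroid gland secretes mostly thyroxine (T4), which is a weak ligand of the receptors. T4 crosses into the brain and into astrocytes through membrane transporters, and astrocytes convert it into the active hormone triiodothyronine (T3), which they can pass on to neurons. T3 binds nuclear receptors that sit on DNA with retinoid X receptors, repressing target genes without hormone and activating them with it. The first postnatal weeks are a period in which the rodent brain depends on this supply.

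Levels are given in CPM, reads of a gene scaled to the total of its library. With 18213687 to 50366363 reads counted per library, a floor of 3 counts lies at 0.0596 to 0.165 CPM. These floors cover counting error only. Cortex replicate a was the deepest library, and dLG replicate c had the fewest genes detected, 17749 against 21052 to 23365 in the others. Astrocyte markers were abundant in every group, and the summed level of 10 such genes was 12369 to 13191 CPM in the cortex, 6360 to 8753 in the VPM, 7505 to 8687 in the dLG, and 5867 to 15467 in the MGv. Of these 10 genes, 3 were lower and 1 was higher in the thalamus than in the cortex by the test described below, which called 11.4% of all genes. Nucleus by nucleus against the cortex, 4 were lower and 1 was higher in the dLG (19.4% of all genes called). In the VPM 4 were lower and 1 was higher (9.00% called), and in the MGv 5 were lower and 1 was higher (15.4% called). *Gfap* itself, the gene behind the reporter, averaged 491 ± 52.5 CPM (SD, n = 4) in cortical libraries, 12.04 ± 4.75 (n = 4) in the VPM, 542 ± 576 (n = 5) in the dLG, and 1922 ± 2592 (n = 4) in the MGv, and its part in the results was not tested. Oligodendrocyte lineage genes were also present throughout, with 8 genes summing to between 3730 and 7594 CPM. In these bulk libraries, fewer cells of a type and less RNA per cell cannot be told apart.

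The CPM were scaled by edgeR's TMM method. Differences are log2 fold changes (log2FC), first group over second, with their standard error (SE) and the p of a quasi-likelihood test in edgeR, adjusted by the Benjamini-Hochberg (BH) method over all genes tested. A gene is called where the adjusted p is under 0.1. Of the 8 genes, 7 passed the filter on low counts in the comparisons with the cortex and 6 in those between nuclei. *Dio3* failed it in both, and *Crym* failed it between nuclei and passed elsewhere only through its cortical counts, so that its place among the genes called is not separate from the filter.

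Of the 7 genes tested, 4 were called between thalamus and cortex, *Slco1c1*, *Dio2*, *Crym*, and *Thrb*, and each was lower in the thalamus. Over all genes tested, 11.4% were called in that comparison and 5.93% were lower in the thalamus. Taken nucleus by nucleus, 6 of 7 were lower in the dLG than in the cortex (19.4% of all genes called, 9.04% in that direction). In the VPM 3 of 7 were lower (9.00% called, 5.44% in that direction), and in the MGv 5 of 7 (15.4% called, 7.51% in that direction). None of the 7 genes was called higher in a thalamic group than in the cortex. The median log2FC of the 7 genes between thalamus and cortex was -0.59, against 0.02 for all genes tested. These comparisons share the 4 cortical libraries, so their counts do not repeat one another independently. *Crym* is among the genes called in each of them and entered only through its cortical counts. The counts and the median thus include a gene whose call is not separate from the filter. Apart from *Crym*, the genes called were *Slco1c1*, *Dio2*, and *Thrb* between thalamus and cortex, and *Slco1c1* and *Dio2* for the VPM.

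**Figure D1:**
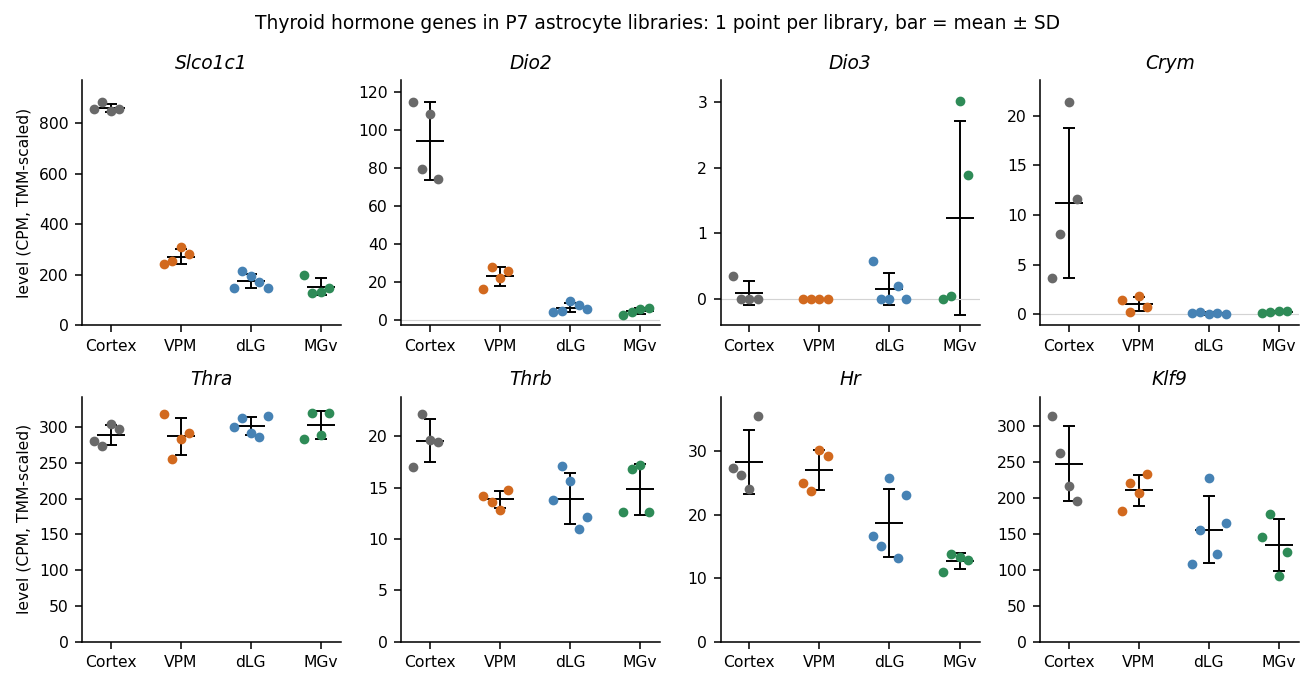
Level of each of the 8 genes in CPM (vertical axes, linear, each with its own range) in the 4 cortical, 4 VPM, 5 dLG, and 4 MGv libraries, 1 point per library, with a bar for the mean ± SD. *Slco1c1* and *Dio2* of the cortex lie above every thalamic library, with the VPM highest among the nuclei, whereas *Thra* lies between 255.8 and 320.7 CPM in all 17 libraries.

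The bases before the start of transcription are shown for the genes that the results turn on, a transporter (*Slco1c1*) and the activating enzyme (*Dio2*), both called in every comparison with the cortex, and 1 hormone target (*Klf9*). These are the 250 bases upstream of the annotated start in RefSeq (GRCm38.p6), 5′ to 3′ on the gene's strand. RefSeq gave windows for 5 of the 8 genes, and none for *Thra*, *Hr*, and *Crym*. Capitals mark a cAMP response element, TGACGTCA, which reads the same on both strands.

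*Slco1c1*, chr6:141524104-141524353, plus strand: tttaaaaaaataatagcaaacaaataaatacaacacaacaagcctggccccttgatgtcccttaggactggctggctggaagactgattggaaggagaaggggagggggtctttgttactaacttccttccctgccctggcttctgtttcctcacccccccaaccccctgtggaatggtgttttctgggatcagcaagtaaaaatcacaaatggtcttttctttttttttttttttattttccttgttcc

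*Dio2*, chr12:90739039-90739288, minus strand: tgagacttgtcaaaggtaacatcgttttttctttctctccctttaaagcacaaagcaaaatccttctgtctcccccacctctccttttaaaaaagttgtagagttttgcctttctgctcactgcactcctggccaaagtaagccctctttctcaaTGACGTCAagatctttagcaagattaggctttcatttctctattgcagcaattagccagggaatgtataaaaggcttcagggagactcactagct

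*Klf9*, chr19:23140976-23141225, plus strand: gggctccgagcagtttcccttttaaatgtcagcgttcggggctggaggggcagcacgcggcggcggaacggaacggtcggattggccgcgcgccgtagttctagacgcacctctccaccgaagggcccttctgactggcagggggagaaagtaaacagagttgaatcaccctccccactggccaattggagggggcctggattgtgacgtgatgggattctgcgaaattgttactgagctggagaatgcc

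The windows were searched on both strands for the half-site of a thyroid hormone response element, AGGTCA, for AGGTCA repeated on the same strand with 4 bases in between, and for TGACGTCA, the last of which was added after the windows had been read. The element in *Dio2* lies 95 to 88 bases before the start, and 1.55% of 32851 RefSeq windows of this length hold one. No half-site was found in the windows of *Slco1c1*, *Dio2*, *Dio3*, or *Klf9*, and 1 in that of the upstream start of *Thrb*, 184 to 179 bases before it, where 14% of all windows hold at least 1. The paired element was in none of these windows and in 0.0152% of all. The RefSeq start of *Dio2* lies upstream of the gene's start in the annotation used for the counts' positions, which is at 90738438 on the minus strand. The *Dio2* window, from 90739039 on, thus does not adjoin that start.

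*Slco1c1* encodes a transporter (OATP1C1) that carries T4 across the blood-brain barrier and into astrocytes. It lies on chromosome 6 from 141524368 to 141570177 (GRCm38, plus strand). In the cortex it was at 855, 884, 846, and 856 CPM in replicates a to d. The VPM libraries were at 241, 252, 307, and 280 CPM. The dLG libraries were at 147, 213, 194, 172, and 149 CPM, and the MGv libraries at 200, 129, 132, and 148. All cortical libraries lay far above all thalamic ones, and each VPM library lay above each dLG and MGv library, which overlapped. The means were 860 ± 16.8 CPM (SD, n = 4) in the cortex, 270 ± 29.8 (n = 4) in the VPM, 175 ± 28.5 (n = 5) in the dLG, and 152 ± 32.9 (n = 4) in the MGv, that is, 31.4%, 20.4%, and 17.7% of the cortical mean. It was 4.38-fold lower in the thalamus than in the cortex (edgeR, log2FC -2.13, SE 0.19, adjusted p = 3.2e-07).

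The order of the nuclei was tested in the fit of the 13 thalamic libraries. *Slco1c1* was lower in the dLG than in the VPM (log2FC -0.65, SE 0.15, adjusted p = 0.0322, edgeR) and higher in the VPM than in the MGv (0.86, SE 0.16, adjusted p = 0.00954). The call of the dLG against the VPM was lost without VPM replicate c (adjusted p = 0.117). The dLG and MGv did not differ beyond their spread (0.21, SE 0.16, adjusted p near 1). *Slco1c1* is also a gene of brain endothelium. The 8 endothelial markers together summed to 4.37 to 7.96 CPM in the cortex, 4.17 to 11.6 in the VPM, 4.72 to 61.8 in the dLG, and 4.57 to 27.3 in the MGv. Of the 6 that were tested, 0 were called between thalamus and cortex by edgeR, with 1 at an unadjusted p under 0.05 and 1 called by DESeq2, and their median log2FC was 1.70, toward the thalamus. Between the dLG and the cortex 1 of the 6 was called, higher in the dLG (19.4% of all genes called). The part of these markers in the result for *Slco1c1* was not tested.

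*Dio2* encodes the type 2 deiodinase, which converts T4 into T3 and is made in the brain mainly by astrocytes and by tanycytes, the glia that line the floor of the third ventricle. It lies on chromosome 12 from 90724552 to 90738438 (minus strand), and *Gm26512* overlaps 1.72% of its exonic length. The cortical libraries were at 115, 79.6, 109, and 74.2 CPM. The VPM libraries were at 16.2, 27.8, 22.3, and 25.7 CPM. In the dLG the level was 4.44, 4.62, 10.2, 7.76, and 5.99 CPM, and in the MGv it was 2.87, 4.10, 5.72, and 6.52 CPM. These are low but well-counted levels, since even the lowest library held 59 reads of *Dio2*. The lowest cortical library lay above the highest thalamic one, and the lowest VPM library above the highest of the dLG and MGv.

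The thalamic libraries were 8.51-fold below the cortical ones in *Dio2* (log2FC -3.09, SE 0.45, edgeR, adjusted p = 1.2e-04). The gap was 4.04-fold for the VPM (log2FC -2.02, SE 0.28, adjusted p = 8.7e-05), 14.6-fold for the dLG (-3.87, SE 0.28, adjusted p = 1.7e-08), and 20.2-fold for the MGv (-4.34, SE 0.31, adjusted p = 1.9e-08). Within the thalamus, *Dio2* was 3.55-fold lower in the dLG than in the VPM (log2FC -1.83, SE 0.30, adjusted p = 0.00671) and 4.89-fold higher in the VPM than in the MGv (2.29, SE 0.33, adjusted p = 0.00168). The dLG and MGv overlapped (0.46, SE 0.30, adjusted p near 1). Every one of the *Dio2* calls held under each of the 20 to 24 alternative settings run for it.

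Of 5 tanycyte markers, *Rax* and *Fndc3c1* had at most 6 reads in any library. The list's summed level was 236 to 265 CPM in the cortex, 9.24 to 11.8 in the VPM, 23.9 to 38.0 in the dLG, and 31.7 to 75.8 in the MGv. The cortical sum was mostly *Lhx2* (229 ± 11.2 CPM, n = 4), a transcription factor that cortical astrocytes also express and that was at 3.51 ± 1.06 CPM (n = 4) in the VPM. The part of these markers in the result for *Dio2* was otherwise not tested.

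*Dio3* encodes the type 3 deiodinase, which inactivates T4 and T3, and is an imprinted gene of a single exon on chromosome 12 from 110279068 to 110281097 (plus strand). It was at or near 0 in most libraries. In the cortex 17, 0, 0, and 0 reads were counted in replicates a to d, and in the VPM none in any of the 4 libraries. The dLG libraries held 12, 0, 0, 4, and 0 reads, and the MGv libraries 0, 1, 61, and 41. The highest level was 3.01 CPM in MGv replicate c. Each group had at least 1 library at 0, and *Dio3* was too low for the main test. Among the alternative settings that kept it, the VPM was called lower than the MGv in 4 of 8, with adjusted p from 0.0185 to 0.176 (edgeR or DESeq2), and only MGv replicates c and d held more than 1 read there. No other pair of groups was called under any setting that kept *Dio3*. Pooled over libraries, the cortical share of reads was 0.124 times that of the MGv (95% exact conditional binomial interval 0.0694 to 0.208). It was 0.996 times that of the dLG (0.473 to 2.11). These intervals cover counting error only, and the reads of each group came from few of its libraries.

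*Crym* encodes μ-crystallin, a cytosolic protein that binds T3, on chromosome 7 from 120186380 to 120202111 (minus strand). The cortical libraries held 175, 168, 432, and 238 reads, or 3.68, 8.11, 21.4, and 11.6 CPM. In the VPM 32, 4, 38, and 15 reads were counted. The dLG libraries held 4, 6, 0, 2, and 0 reads and the MGv libraries 4, 4, 8, and 8. The cortical libraries lay above every thalamic one, and varied widely among themselves. Pooled over libraries, the cortical share of reads was 8.49 times that of the VPM (95% exact conditional binomial interval 6.83 to 10.7), 79.1 times that of the dLG (45.1 to 154), and 31.6 times that of the MGv (21.1 to 49.6), intervals that cover counting error only.

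In the fits over libraries, *Crym* was lower in the thalamus (log2FC -4.56, SE 0.69, edgeR, adjusted p = 1.8e-04), in the VPM (-3.34, SE 0.72, adjusted p = 0.00599), in the dLG (-6.53, SE 0.80, adjusted p = 1.8e-05), and in the MGv (-5.26, SE 0.81, adjusted p = 2.8e-04), each against the cortex. *Crym* entered these fits through its cortical counts alone, and between nuclei it is given by its counts only. *Crym* is also known from cortical neurons. Of 12 neuronal markers, 3 were higher and 1 was lower in the thalamus than in the cortex (11.4% of all genes called). Against the cortex, 5 were higher and 2 lower in the dLG (19.4% called), 3 and 1 in the VPM (9.00%), and 3 and 2 in the MGv (15.4%). Between nuclei, 2 were higher in the VPM than in the MGv (11.4% called). In the dLG 1 was higher than in the MGv (0.647% called) and 1 lower than in the VPM (9.64% called). The summed level of these markers was 1309 to 1620 CPM in the cortex, 1098 to 2123 in the VPM, 1700 to 2159 in the dLG, and 959 to 2441 in the MGv. Their part in the result for *Crym* was not tested.

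*Thra* and *Thrb* encode the nuclear receptors of T3, of which the α receptor is the main one in brain. *Thra* lies on chromosome 11 from 98740638 to 98769006 (plus strand), and 5.70% of its exonic length overlaps *Nr1d1* on the opposite strand. Whether the authors counted by strand is not stated in the sources used here. The mean of *Thra* was 289 ± 14.5 CPM (SD, n = 4) in the cortex, 288 ± 26.2 (n = 4) in the VPM, 302 ± 12.8 (n = 5) in the dLG, and 303 ± 19.9 (n = 4) in the MGv. The groups overlapped in full, between 255.8 and 320.7 CPM, and the difference between thalamus and cortex was a log2FC of 0.03 (edgeR, SE 0.08, adjusted p = 0.903). The counts are per gene and do not separate the hormone-binding α1 product from the α2 product, which does not bind T3.

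*Thrb* lies on chromosome 14 from 17660261 to 18038090 (plus strand). The cortical libraries were at 17.03, 22.2, 19.6, and 19.5 CPM. The VPM libraries were at 14.2, 13.6, 12.8, and 14.8 CPM, those of the dLG at 13.8, 17.1, 15.7, 11.0, and 12.1, and those of the MGv at 12.6, 16.8, 17.2, and 12.7. The highest thalamic libraries thus reached the lowest cortical one. *Thrb* was 1.40-fold lower in the thalamus (log2FC -0.48, SE 0.14, adjusted p = 0.0361, edgeR), a call that was lost without cortex replicate b, c, or d, with adjusted p up to 0.175 over all alternatives. By nucleus, only the dLG was called lower than the cortex (-0.52, SE 0.17, adjusted p = 0.0505, edgeR), in 18 of 23 alternative settings. The VPM (-0.47, adjusted p = 0.151) and MGv (-0.44, adjusted p = 0.129) did not pass. Their mean levels, 13.8 and 14.8 CPM, were close to the 13.9 CPM of the dLG, so the call does not set the dLG apart. Between nuclei neither receptor gene was called, and the log2FC of *Thrb* was -0.02 for the dLG against the VPM, -0.08 for the dLG against the MGv, and -0.07 for the VPM against the MGv (edgeR, adjusted p of 0.883 or more).

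Per kilobase of exon, *Thra* was the more abundant receptor gene in every library. Its level in CPM per kilobase of exon (RPKM) was 62.7 ± 3.15 (SD, n = 4) in the cortex against 2.64 ± 0.283 for *Thrb*. The ratio of the 2 genes' RPKM ran from 19.8 to 26.5 in the cortex, 30.1 to 36.2 in the VPM, 29.4 to 42.0 in the dLG, and 27.1 to 40.6 in the MGv. The cortical ratios did not overlap those of any nucleus, a description of the lower *Thrb* just given. On the same per-length scale, *Slco1c1* was the highest of the 8 genes in the cortex, at 166 ± 3.25 RPKM, and in the VPM, dLG, and MGv *Thra* was, at 62.3 ± 5.67, 65.4 ± 2.76, and 65.8 ± 4.31 RPKM.

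*Hr* and *Klf9* are direct targets of T3 in the developing brain. *Hr* (Hairless), on chromosome 14 from 70552212 to 70573548 (plus strand), encodes a nuclear corepressor that binds the hormone's receptors. It was at 27.3, 26.2, 24.1, and 35.5 CPM in the cortex. The VPM was at the same height, with 24.9, 23.8, 30.2, and 29.3 CPM. The dLG libraries ranged lower, at 16.7, 15.0, 25.7, 13.2, and 23.0 CPM, and the MGv libraries were at 11.0, 13.8, 13.3, and 12.9. The cortex and the VPM overlapped, dLG replicate c lay within their range, dLG replicate d lay within that of the MGv, and every MGv library lay below every cortical and VPM library.

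*Hr* was called lower than in the cortex in the MGv, by 2.28-fold (log2FC -1.19, SE 0.21, edgeR, adjusted p = 9.1e-04), and in the dLG, by 1.54-fold (-0.62, SE 0.19, adjusted p = 0.0381), the latter not without cortex replicate d (adjusted p = 0.177). The VPM did not pass (-0.04, SE 0.20, adjusted p = 0.965). Within the thalamus *Hr* was 2.17-fold higher in the VPM than in the MGv (log2FC 1.11, SE 0.22, adjusted p = 0.0107). The dLG lay between them and was not called against the VPM (-0.55, SE 0.20, adjusted p = 0.129) or the MGv (0.56, SE 0.21, adjusted p = 0.560). Against the VPM it passed in 4 of 20 alternative settings, among them the fit without dLG replicate c.

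*Klf9* encodes a transcription factor of the Krüppel-like family and lies on chromosome 19 from 23141226 to 23168134 (plus strand), directly after the window printed above. The cortical libraries were at 313, 263, 217, and 196 CPM. The VPM libraries were at 182, 220, 206, and 233 CPM, the dLG libraries at 108, 155, 228, 122, and 164, and the MGv libraries at 145, 177, 91.1, and 125. The cortex and the VPM overlapped, dLG replicate c lay among them, and no MGv library reached the lowest library of either. The means fell in the same order as those of *Hr*, from 247 ± 52.1 CPM (SD, n = 4) in the cortex through 210 ± 21.8 (n = 4) in the VPM and 155 ± 46.5 (n = 5) in the dLG to 135 ± 36.2 (n = 4) in the MGv.

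Against the cortex, *Klf9* was lower in the dLG (log2FC -0.70, SE 0.21, adjusted p = 0.0342, edgeR) and in the MGv (-0.92, SE 0.23, adjusted p = 0.0135), and not called in the VPM (-0.21, SE 0.22, adjusted p = 0.760). The call in the dLG was lost without cortex replicate a, the library of highest *Klf9* (adjusted p = 0.131). Over the whole thalamus the log2FC was -0.59 (SE 0.21, adjusted p = 0.105), just outside the threshold. In the VPM it was 1.59-fold higher than in the MGv (0.67, SE 0.23, adjusted p = 0.0907), a call made in only 9 of 20 alternative settings.

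Between nuclei, 2 of the 6 genes tested were called between the dLG and the VPM, *Slco1c1* and *Dio2*, both lower in the dLG (9.64% of all genes tested were called, 3.16% in that direction). Without dLG replicate c 4 were called, *Hr* and *Klf9* in addition, and 1 was called without VPM replicate c. With DESeq2 and in the fit of 4 groups 4 were called as well, *Slco1c1*, *Dio2*, *Hr*, and *Crym*, the last of which had failed the filter between nuclei. Between the VPM and the MGv, 4 of 6 were called, each higher in the VPM (11.4% called, 4.53% in that direction), *Slco1c1*, *Dio2*, *Hr*, and *Klf9*. Between the dLG and the MGv, edgeR called 0 of 6, with 1 at an unadjusted p under 0.05, and DESeq2 called 0 as well (0.647% of all genes called by edgeR). By mean level the VPM stood nearest to the cortex in *Slco1c1*, *Dio2*, *Hr*, and *Klf9*. *Thrb* did not take this order, at 70.7% of the cortical mean in the VPM, 71.1% in the dLG, and 75.7% in the MGv. Markers of astrocytes and of other cells moved with the nuclei too. Of 10 astrocyte markers, 3 were higher and 1 was lower in the VPM than in the MGv. In the dLG 2 were higher and 2 lower than in the VPM, and 1 was higher than in the MGv. Between the VPM and the MGv, 6 of 8 oligodendrocyte lineage genes were called, 4 higher and 2 lower in the VPM, and 3 of 6 microglial genes were lower in the VPM. Of the microglial genes, 3 were also higher in the dLG than in the VPM, and their summed level was 10.6 to 19.7 CPM in the cortex, at most 10.9 in the VPM, 11.0 to 93.7 in the dLG, and up to 55.1 in the MGv. The oligodendrocyte lineage genes summed to 3952 to 5087 CPM in the cortex, 3730 to 7594 in the VPM, 4125 to 5549 in the dLG, and 3816 to 4936 in the MGv. The part of these markers in the results was not tested.

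**Figure D2:**
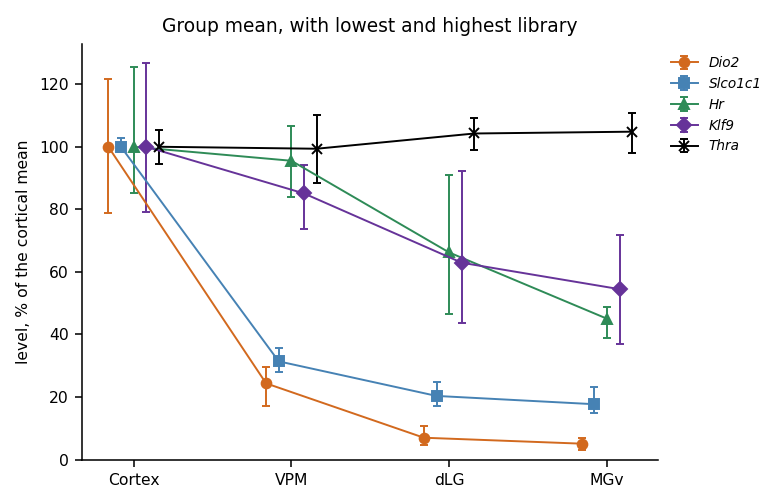
Mean level of *Dio2*, *Slco1c1*, *Hr*, *Klf9*, and *Thra* in each group as a percentage of the cortical mean (vertical axis, linear from 0), with bars from the lowest to the highest library, and lines only to join the means of a gene. *Dio2* falls to 24.4% in the VPM, 6.99% in the dLG, and 5.09% in the MGv, *Hr* to 95.5%, 66.2%, and 45.0%, and *Thra* stays between 99.4% and 105%.

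**Figure D3:**
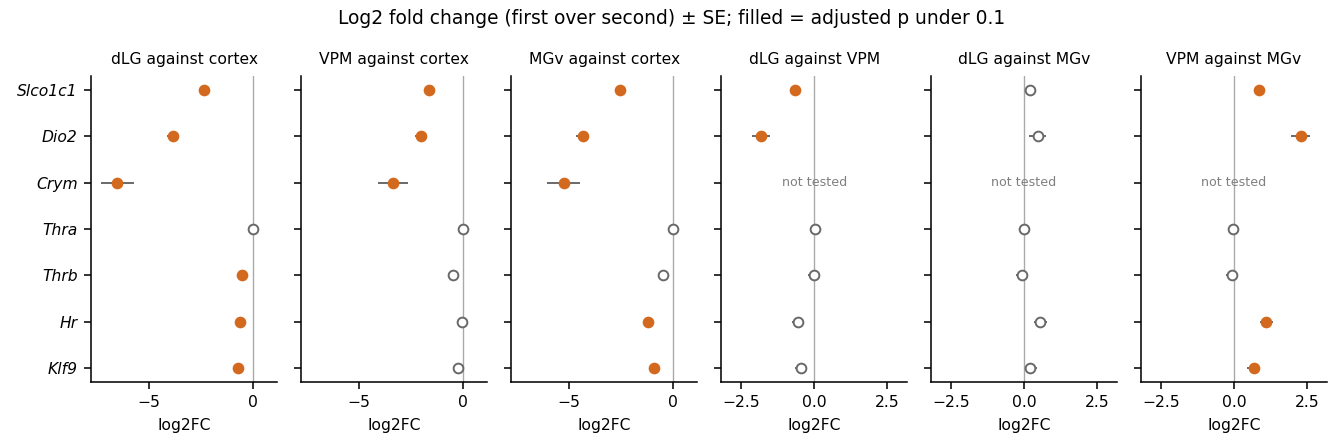
Log2FC of the 7 genes that could be tested (rows) in 6 comparisons (panels), first group over second, with bars of ± SE, where the bar is hidden if shorter than the point. Filled points have an adjusted p under 0.1 (edgeR), and all filled points lie below 0 against the cortex and above 0 for the VPM against the MGv.

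The libraries fall into 3 series by the first digits of their library numbers, and the orders were compared within series. In the series that holds all 4 MGv libraries with 2 of each other group, mean *Dio2* was 91.5 CPM in the cortex, 23.98 in the VPM, 4.53 in the dLG, and 4.80 in the MGv, and mean *Slco1c1* was 851, 294, 180, and 152 CPM. In the other series that holds several groups, with 2 libraries each, *Dio2* was at 97.2 CPM in the cortex, 21.99 in the VPM, and 6.87 in the dLG, and *Slco1c1* at 870, 247, and 161. *Hr* was 29.8, 29.7, 15.8, and 12.7 CPM in the cortex, VPM, dLG, and MGv of the first, and 26.8, 24.3, and 18.1 in the cortex, VPM, and dLG of the second. For these 3 genes the cortex was highest, the VPM next, and the dLG lower in both series, with the cortex and the VPM nearly level in *Hr*. *Klf9* of the VPM was above the cortex in the first (219 against 206 CPM) and below it in the second (201 against 288 CPM). Mean *Klf9* of the dLG and MGv was 132 and 135 CPM in the first, and that of the dLG was 143 CPM in the second. The order of the *Klf9* means over all libraries was thus not kept within the first series. The MGv occurs in a single series.

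Genes induced by tissue dissociation moved with some of these groups. The summed level of 8 such genes was 884 to 4008 CPM in the cortex, 696 to 2716 in the VPM, 2844 to 3778 in the dLG, and 4554 to 6540 in the MGv. Of the 8, 4 were higher in the dLG than in the VPM (9.64% of all genes called) and 5 were lower in the VPM than in the MGv (11.4% called), the same pairs in which *Dio2* and *Slco1c1* differed in the opposite direction. Against the cortex, 0 of 8 were called in the VPM (edgeR, 1 at an unadjusted p under 0.05, and 0 by DESeq2), 2 were higher in the dLG (19.4% of all genes called), and 5 in the MGv (15.4% called). *Fos*, an immediate early gene of this list, was at 195 to 1524 CPM in the cortex, highest in replicate a. That library also had the highest cortical *Dio2* and *Klf9* and the lowest cortical *Crym* and *Thrb*. The part of this response in the results was not tested.

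The other genes of the pathway are given as lists chosen by role, with earlier results of these data known, 55 genes in all. Of 10 other transporters of thyroid hormones, 1 was called between thalamus and cortex by edgeR (11.4% of all genes called), and 0 by DESeq2. It was *Slc7a5* (LAT1, an amino acid transporter that also carries the hormones), lower in the thalamus (log2FC -0.50, SE 0.17, adjusted p = 0.0905, edgeR). Its mean was 218 ± 14.9 CPM (SD, n = 4) in the cortex, 129 ± 19.5 (n = 4) in the VPM, 142 ± 20.1 (n = 5) in the dLG, and 201 ± 63.0 (n = 4) in the MGv. Against the cortex, 3 of the 10 were called in the dLG, 1 higher and 2 lower (19.4% of all genes called). In the VPM 2 were lower (9.00% called), and in the MGv 0 were called by edgeR or DESeq2 (15.4% called by edgeR). The median log2FC of the list was 0.20.

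Of 11 genes of hormone metabolism and carriage, 9 were tested and 0 were called between thalamus and cortex by edgeR (1 at an unadjusted p under 0.05, and 0 by DESeq2). Against the cortex, 1 of the 9 was higher in the dLG (19.4% of all genes called), 1 in the VPM (9.00% called), and 1 in the MGv (15.4% called). Between nuclei, 1 was lower in the dLG than in the VPM (9.64% called). In the VPM, 1 was higher and 1 lower than in the MGv (11.4% called). *Dio1*, the deiodinase of liver and kidney, and *Ttr*, the carrier protein made by the choroid plexus, were at the floor of detection in most groups, with *Ttr* at 0 in every VPM and dLG library. Of 14 receptor partners and cofactors, 0 were called between thalamus and cortex by edgeR (3 at an unadjusted p under 0.05, and 1 by DESeq2). Against the cortex, 3 of the 14 were higher in the dLG (19.4% of all genes called) and 3 in the MGv (15.4% called). In the VPM 0 were called by edgeR (1 at an unadjusted p under 0.05, and 0 by DESeq2). The retinoid X receptor γ gene *Rxrg* differed by nucleus, at 35.5 ± 2.82 CPM (SD, n = 4) in the cortex, 33.2 ± 5.16 (n = 4) in the VPM, 89.1 ± 5.23 (n = 5) in the dLG, and 94.8 ± 49.2 (n = 4) in the MGv. It was higher in the dLG than in the cortex (log2FC 1.30, SE 0.25, adjusted p = 0.00202) and the VPM (1.40, SE 0.28, adjusted p = 0.0165), both by edgeR. *Ncoa2*, a coactivator, was also higher in the dLG than in the VPM (0.67, SE 0.20, adjusted p = 0.0726).

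Of 20 genes known to respond to T3 in the brain, 19 had counts and were tested, and 6 were called between thalamus and cortex, 3 lower and 3 higher in the thalamus, where 11.4% of all genes were called and 5.93% were lower. The list's median log2FC was 0.35, against 0.02 for all genes. Nucleus by nucleus against the cortex, 4 were higher and 1 was lower in the VPM (9.00% of all genes called), with a list median of 0.72. In the dLG 3 were higher and 3 lower (19.4% called, list median 0.19). In the MGv 2 were higher and 3 lower (15.4% called, list median -0.01). The genes lower in the thalamus as a whole were *Nrgn* (neurogranin), *Gbp3* (a guanylate-binding protein), and *Thrsp* (a regulator of lipid synthesis). *Nrgn* was at 145, 165, 160, and 141 CPM in the cortex and between 1.73 and 43.3 CPM in the 13 thalamic libraries, with no overlap (log2FC -3.88, SE 0.65, adjusted p = 5.1e-04, edgeR). *Gbp3* had a log2FC of -1.90 (SE 0.47, adjusted p = 0.0151) and *Thrsp* one of -0.75 (SE 0.24, adjusted p = 0.0672), by the same test. *Thrsp* was lowest in the MGv, at 11.5 ± 2.00 CPM (SD, n = 4), against 27.3 ± 6.34 (n = 4) in the cortex.

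The genes that were higher in the thalamus were *Reln* (reelin, an extracellular guide of neuronal migration), *Itpr1* (a calcium channel of the endoplasmic reticulum), and *Camk4* (a calcium-dependent kinase). *Reln* had a mean of 2.90 ± 0.711 CPM (SD, n = 4) in cortical libraries, with 11.9 ± 6.49 (n = 4) in the VPM, 30.5 ± 6.89 (n = 5) in the dLG, and 70.5 ± 33.2 (n = 4) in the MGv, and its log2FC between thalamus and cortex was 3.65 (SE 0.68, adjusted p = 0.00145, edgeR). *Itpr1* had a log2FC of 1.19 (SE 0.38, adjusted p = 0.0591) and *Camk4* one of 1.08 (SE 0.36, adjusted p = 0.0773). *Nrgn* and *Reln* are also known as neuronal genes, and the neuronal markers given above with *Crym* are those that apply. Between nuclei, *Reln* was lower in the VPM than in the MGv (-2.53, SE 0.42, adjusted p = 0.00418), and *Nrgn* was lower in the VPM (-3.58, SE 0.42, adjusted p = 4.0e-04) and the dLG (-2.84, SE 0.37, adjusted p = 0.00156) than in the MGv. Thus genes of this list did not all take the order of the mean levels of *Hr* and *Klf9* over all libraries.

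**Figure D4:**
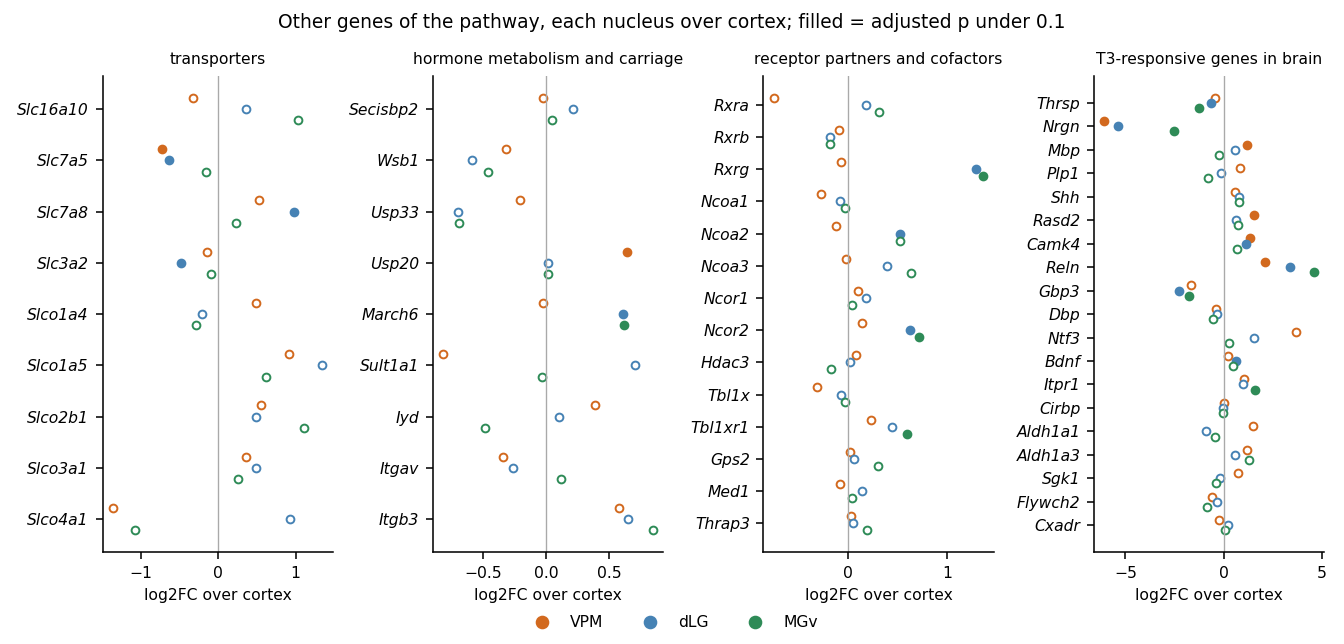
Log2FC over the cortex (horizontal axes, each with its own range) of the other pathway genes that were tested and are reported here, for the VPM, the dLG, and the MGv, in 4 panels by role. Filled points have an adjusted p under 0.1 (edgeR). Most transporters, metabolic genes, and cofactors are unfilled, and *Nrgn* (lower) and *Reln* (higher) are filled in all 3 nuclei.

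For each of the 6 genes called in at least 1 comparison, the genes with the most alike profile over the 17 libraries were listed by the root mean square (RMS) difference of centred log2 CPM among 17855 other genes, as a description with no test. *Dio2* was most alike to *Smim3* (RMS difference 0.56, where *Dio2* itself varied by 1.72 about its mean), *Pnlip* (0.65), and *Hapln1* (0.71), the last of which encodes a link protein of the extracellular matrix. *Smim3* was at 77.5, 23.6, 7.42, and 9.24 CPM in the cortex, VPM, dLG, and MGv. *Slco1c1* was closest to *Kcnk1*, a potassium channel gene, with a difference of 0.23 against its own variation of 0.99, and then to *Gpd1* (0.39) and *Dok5* (0.40). *Klf9* was closest to *Cxcl14*, a chemokine gene (0.17 against 0.46), at 233, 175, 132, and 119 CPM in the same order of groups, and then to *Gm1833* (0.24) and *Prr5* (0.26). *Hr* was closest to *Psd2* (0.26 against 0.51), *Bicd2* (0.27), and *Prnp* (0.28). *Crym* was closest to *Cd38* (0.89 against 2.31), *Arhgap15* (0.98), and *Hs3st2* (0.98), and *Thrb* to *Fdft1* (0.17 against 0.27), *Decr1* (0.17), and *Pcyt2* (0.17).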

How the data were processed

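Total RNA of FACS-purified *Gfap::Gfp* cells was amplified with a SMARTer v4 kit and sequenced as single reads on 1 flow cell. Per the paper's methods, the authors trimmed adapters, mapped reads to GRCm38.p6 with STAR (2.7.0d), and assigned them to Ensembl genes with featureCounts (Subread 1.6.4), and they deposited raw counts per gene and library, without normalization. Of 26556 identifiers, 26548 were matched to GENCODE M21, and 8 were not.

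Groups came from the sample labels. Genes were filtered with filterByExpr, scaled by TMM, and tested with edgeR (4.0.16, R 4.3.3) by a robust quasi-likelihood test with BH adjustment, in a fit of thalamus and cortex and a fit of 4 groups against the cortex (17856 genes), and a fit of the nuclei (17319 genes). SE is the size of the log2FC over the square root of *F*. RPKM uses the union exonic length. Likeness used a prior count of 2. The fits were tested on simulated data, in which the share of false calls was near the threshold for edgeR and above it for DESeq2. Alternatives were DESeq2 (1.42.0), its size factors in edgeR, no filter, a fit of 4 groups, the replicate block, the library number series, an adjusted p under 0.05, and each library left out.

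The genes and lists were chosen with earlier results of these data known. Named were the 8 genes, up to 6 called genes a list (lowest adjusted p between thalamus and cortex), the lowest 2 per pair of nuclei, and 3 alike genes a member. A further gene of the lists is counted in them and not reported here. *Gfap*, *Lhx2*, *Rax*, *Fndc3c1*, *Fos*, *Dio1*, *Ttr*, *Rxrg*, and *Ncoa2*, where outside this rule, were named after their values were seen. The labels do not say that pools were separate litters, so p measures the spread between these pools.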

Additional observations from a re-analysis of the deposited data

Results flagged for a closer look

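*Dio3* in cortex replicate a, at 0.357 CPM (17 reads), stood apart from the other 3 cortical libraries, which held none. This library was also the most deeply counted. Such a gap was looked for in 31 combinations of gene and group, with cutoffs that flag about 1 in 20 by chance for normally distributed values. That rate does not apply to *Dio3*, because a single library with reads beside libraries at 0 always meets the rule.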

How the results depend on the processing

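No called log2FC of the 8 genes changed sign under any alternative run, and sign changes were limited to log2FC that were not called, of *Thra*, *Thrb*, and *Hr*. The number of genes called between the dLG and the VPM, 2 in the main test, was 4 with DESeq2 and 4 in the fit of 4 groups (each with *Crym*), and ranged from 1 (without VPM replicate c) to 4 (without dLG replicate c) as each library was left out. The other 6 counts moved by at most 1.5 times under every alternative run, from 3 to 6 between thalamus and cortex and from 4 to 6 between the dLG and the cortex. DESeq2 scaling moved no mean level of the 8 genes by more than 0.993%.

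Whether replicate letters pair the libraries is not known. Of 24 same-letter pairs between groups, 4 had a correlation of deviations over 0.1 (range -0.156 to 0.219). The median was 0.008, against -0.012 for different letters. Low correlations cannot show that libraries came from different brains. With the replicate block, 4 genes were called between thalamus and cortex, 6 for the dLG, 3 for the VPM, and 5 for the MGv against the cortex, 2 between the dLG and the VPM, 0 between the dLG and the MGv, and 3 between the VPM and the MGv. Over all genes, calls between the dLG and the VPM numbered 1670 in the main test, 3051 with DESeq2, 1079 with the replicate block, and 814 with the library number series, and from 357 (without VPM replicate c) to 3147 (without dLG replicate d) as each library was left out, with 413 and 498 without VPM replicates a and d and 824 and 1002 without dLG replicates b and e. Between the VPM and the MGv they numbered 1979, and from 712 (without VPM replicate a) to 2998 (without dLG replicate c), with 733 and 852 without VPM replicates c and d and 1030 and 1131 without MGv replicates b and d. The shares of all genes called between nuclei move with these counts. Low counts limit *Dio3* in all groups and *Crym* in the dLG and MGv.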
